A study of Mus musculus with 4 samples.

Results

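The Period genes Per1, Per2 and Per3 and the cryptochrome genes Cry1 and Cry2 were followed in sorted mouse pancreatic β-cells. They were picked by name from the table of read counts, which lists all 5 among its 23420 genes, and all 5 passed the filter on low counts that left 14649 genes to test. The series holds 4 libraries, 2 from animals labelled Bmal1KO and 2 from animals labelled Bmal1Het with the genotype Bmal1+/-. Animals of both groups carried DTA, the A chain of diphtheria toxin, and had 10 days of doxycycline, and the cells sequenced are the β-cells that remained after the resulting ablation. The labels name neither the promoter behind DTA nor how Bmal1 was inactivated, and they give no age and no hour of sampling. They also leave unsaid whether libraries of the same group are separate animals, and p-values below therefore cover the spread among 4 libraries, possibly a technical one.

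The circadian clock of mammalian cells is a feedback loop in transcription. BMAL1, encoded by Arntl, pairs with CLOCK or NPAS2 on E-box DNA elements and drives the Period and cryptochrome genes, and the PER and CRY proteins then enter the nucleus together and repress BMAL1-CLOCK. CRY1 and CRY2 are the direct repressors, PER2 and PER1 carry and stabilise the repressor complex, and PER3 is a weaker member of the family. Interlocked loops of REV-ERB and ROR receptors, and of PAR bZIP factors and their antagonist NFIL3 on D-box elements, act on the same genes. In β-cells this clock is known for timing insulin secretion.

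Promoter windows from RefSeq (GRCm38.p6, 250 bases before to 50 bases after a start of transcription) were matched for 4 of the 5 members: Per1 (2 windows), Per3, Cry1 and Cry2. The 250 bases before the start are shown, 5′ to 3′ on the gene's own strand. They are given for the 3 members that changed and for the first window of Per1, a member that did not pass. Capitals mark matches to the motifs searched on both strands: the E-box CACGTG, its variant CACGTT, which reads as AACGTG on the other strand, the D-box TTATGTAA or TTACGTAA, the REV-ERB and ROR element AAAGGTCA, ATAGGTCA, TAAGGTCA or TTAGGTCA, and the cAMP element TGACGTCA with its shorter form TGACGT, which it contains.
Per3, chr4:151044666-151044915, minus strand: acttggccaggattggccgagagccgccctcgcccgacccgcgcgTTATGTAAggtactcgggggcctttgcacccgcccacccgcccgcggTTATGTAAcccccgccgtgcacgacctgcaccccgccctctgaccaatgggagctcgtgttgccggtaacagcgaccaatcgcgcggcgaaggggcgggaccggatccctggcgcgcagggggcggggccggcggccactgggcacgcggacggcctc
Cry1, chr10:85185055-85185304, minus strand: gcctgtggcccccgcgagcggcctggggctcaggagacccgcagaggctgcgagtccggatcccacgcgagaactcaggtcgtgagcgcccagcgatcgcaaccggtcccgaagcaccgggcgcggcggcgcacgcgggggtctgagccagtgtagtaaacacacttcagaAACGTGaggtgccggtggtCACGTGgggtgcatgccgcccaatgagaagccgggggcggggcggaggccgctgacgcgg
Cry2, chr2:92434070-92434319, minus strand: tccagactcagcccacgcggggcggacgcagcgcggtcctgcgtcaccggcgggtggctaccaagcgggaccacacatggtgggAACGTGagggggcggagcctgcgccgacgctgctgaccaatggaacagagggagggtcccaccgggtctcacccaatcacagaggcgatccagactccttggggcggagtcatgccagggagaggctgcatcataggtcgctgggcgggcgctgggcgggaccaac
Per1, chr11:69098699-69098948, plus strand: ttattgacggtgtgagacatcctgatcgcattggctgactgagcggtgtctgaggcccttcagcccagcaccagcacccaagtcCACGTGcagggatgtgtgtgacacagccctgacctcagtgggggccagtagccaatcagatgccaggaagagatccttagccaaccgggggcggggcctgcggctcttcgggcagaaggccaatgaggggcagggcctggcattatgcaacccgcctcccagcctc

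The Per3 window holds the D-box TTATGTAA at 205 to 198 and again at 158 to 151 bases before the start. Of 32851 windows in the RefSeq table, 1.06% hold a D-box match and 8 windows, or 0.0244%, hold 2 or more. Cry1 has an E-box 60 to 55 bases before its start and the E-box variant at 79 to 74 bases. In Cry2 the variant lies 166 to 161 bases before the start, and in the first Per1 window the E-box CACGTG lies at 166 to 161 bases. The second Per1 window, chr11:69099902-69100151, has TGACGT at 132 to 127 bases before its start. E-box matches occur in 7.15% of all windows, the variant in 4.68% and TGACGT in 7.51%. Matches are descriptions of letters in these windows, not measured binding sites.

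Depth was 31056116 to 38020488 counts per library, and 1 read was worth 0.0258 to 0.0312 CPM (reads scaled to the library's size) with TMM, edgeR's trimmed-mean scaling. The 5 members took 0.0358% to 0.0792% of a library's counts, and none was at 0 anywhere. The 10 listed β-cell markers summed to 217669 to 276654 CPM over the 4 libraries, most of it from Ins2, Iapp and Ins1. Of these 10, Ucn3 (log2 fold change -2.04), G6pc2 (-0.96) and Slc30a8 (-0.92) fell and 7 did not pass, with a list median of -0.45. Arntl, the gene targeted in the animals, was higher in the KO-labelled libraries (75.8 and 65.6 CPM) than in the Het-labelled ones (23.0 and 14.98 CPM), a log2 fold change of 1.89 (SE 0.24, adjusted p = 0.0175, or 0.0724 without Het replicate 2). Counts over the whole gene do not show whether a deleted part is missing, so the groups are called by their labels and each direction is that of the KO-labelled libraries against the Het-labelled ones. KO replicate 1 stood apart in sex-linked RNA, where Xist was at 8.68 CPM against 38.8, 72.3 and 67.5 CPM elsewhere. Eif2s3y was at 136 CPM there against 20.2 to 36.9 CPM, and Ddx3y at 89.1 against 12.1 to 23.8 CPM. Each of these genes had counts in every library, and Xist was lower in both KO-labelled libraries than in the Het-labelled ones. Markers of other cells also differed. Summed stromal markers were at 160 and 413 CPM in the KO-labelled libraries against 67.3 and 24.9 CPM (4 of 10 tested rose), acinar markers at 169 and 65.8 against 45.2 and 9.81 CPM (0 of 9 passed in edgeR's test, 4 had an unadjusted p under 0.05, and 2, 0 and 0 passed in DESeq2, limma-voom and limma-trend), and immune markers at 166 and 604 against 140 and 138 CPM (1 of 10 rose). Of the 10 stromal and 10 immune markers tested, 8 and 5 were higher at an unadjusted p under 0.05 in edgeR's test. Their median log2 fold changes were 3.01 and 1.30. In DESeq2, limma-voom and limma-trend, 6, 1 and 5 stromal markers passed, and 3, 1 and 1 immune markers. Markers of α, δ and PP cells summed to 4202 and 8781 CPM against 3644 and 3402 CPM, and of 7 tested Irx2 rose (2.64) while 4 in all were higher at an unadjusted p under 0.05. Endothelial markers summed to 42.2 and 22.4 CPM against 15.3 and 11.8 CPM, where 0 of 5 passed in edgeR's test, 3 were higher at an unadjusted p under 0.05, and 2, 0 and 0 passed in DESeq2, limma-voom and limma-trend. Duct markers were lower in sum, at 1057 and 1002 against 1259 and 1340 CPM, though their median log2 fold change was 0.053. Of 9 tested, 0 passed in edgeR's test, and 3, 1 and 1 passed in the other tools. At an unadjusted p under 0.05 in edgeR's test, 3 duct markers were higher, Tspan8 (0.84), Sox9 (1.75) and Muc1 (2.24), and 1, Krt7 (-0.68), was lower. Krt7 had the highest level of this list, at 368 and 397 CPM in the KO-labelled libraries against 567 and 663 CPM. Over all genes tested, at least 2431 of 14649 had an unadjusted p under 0.05 in edgeR's test. The acinar marker Amy2a5 was at 0 in all libraries, and no listed stromal or immune marker present in the table was at 0 in all of them, though Pdgfra, which marks fibroblasts, had 0 counts in both Het-labelled libraries beside 1.13 and 5.31 CPM in the others. The part of these cells in the levels of the members was not tested. In bulk RNA fewer cells of a type and less RNA per cell cannot be told apart.

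Across the 5 genes, the cryptochromes rose, Per3 fell and Per1 and Per2 did not pass the test. That is 3 of 5 members, beside 2.54% of all genes tested (1.20% higher and 1.34% lower) at an adjusted p of 0.05 in edgeR's quasi-likelihood test. Libraries with different labels did not overlap for 4 of the 5, all but Per2, beside 49.0% of all genes tested. Their median log2 fold change was 0.50, against 0.024 over all genes tested.

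**Figure D1:**
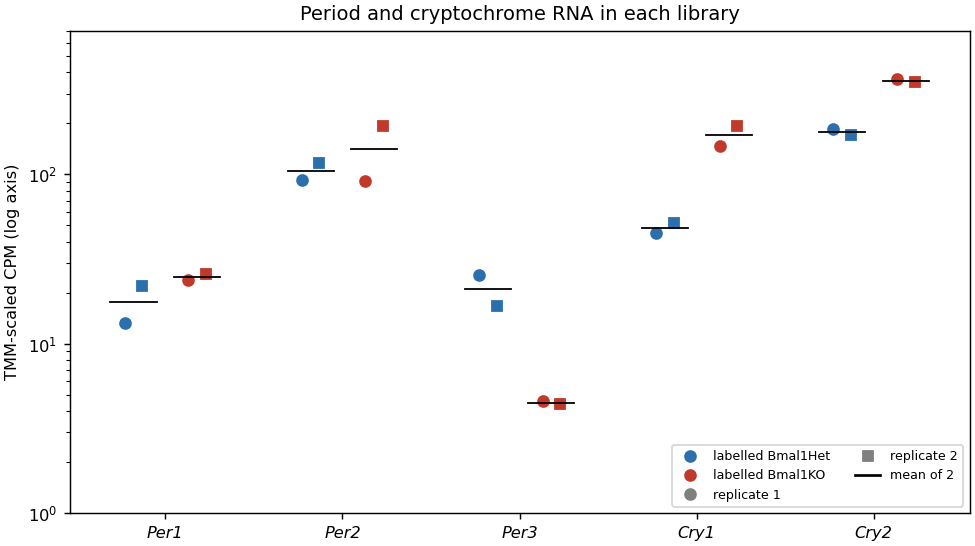
Level of each member in each of the 4 libraries, as TMM-scaled CPM on a log axis; circles are replicate 1, squares replicate 2, blue the Het label, red the KO label, and bars the mean of 2 libraries. Both red points lie above both blue points for Cry1, Cry2 and Per1 and below them for Per3, while the Per2 points interleave.

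Cry1 encodes the stronger of the cryptochrome repressors (Cry1, chromosome 10, 85131700 to 85185064, GRCm38, minus strand). It was at 147 and 194 CPM in the KO-labelled libraries and at 44.7 and 51.9 CPM in the Het-labelled ones. The lowest KO value was thus well above the highest Het value. The means were 171 ± 32.7 and 48.3 ± 5.08 CPM (SD, n = 2 libraries each), a 3.53-fold rise. On the log2 scale the change was 1.82 (SE 0.19, 95% interval 1.38 to 2.26, adjusted p = 0.0129), and Cry1 ranked 24 by p-value among all genes tested.

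Cry2, its paralog on another chromosome (chromosome 2, 92403646 to 92434043, minus strand), rose by less. Its levels were 363 and 352 CPM in the KO-labelled libraries and 186 and 170 CPM in the Het-labelled ones. Within each label the libraries lay close together, and the groups stood well apart. Means were 358 ± 8.13 and 178 ± 11.4 CPM (SD, n = 2 libraries each), a 2.01-fold rise with a log2 fold change of 1.01 (SE 0.14, 95% interval 0.68 to 1.33, adjusted p = 0.0178). Exons of Cry2 share 295 bases, 4.67% of its exon length, with the gene model D930015M05Rik on the opposite strand, and the library kit does not mark strand. That model had 173 and 104 counts in the KO-labelled libraries and 110 and 54 in the Het-labelled ones, beside 11931 and 11265 against 7205 and 5615 for Cry2.

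Per3 was the member that fell (chromosome 4, 151003652 to 151044665, minus strand). Its levels were 4.57 and 4.37 CPM in the KO-labelled libraries and 25.4 and 16.7 CPM in the Het-labelled ones. The KO libraries differed 1.04-fold from each other and the Het libraries 1.52-fold, and the groups stood far apart. Behind these values stood 150 and 140 counts against 984 and 553, the fewest of any member in every library but Het replicate 1, where Per1 had 512. The means of 4.47 ± 0.138 and 21.1 ± 6.13 CPM (SD, n = 2 libraries each) gave a 4.71-fold lower level, a log2 fold change of -2.24 (SE 0.31, 95% interval -2.97 to -1.499, adjusted p = 0.0195). By fold change Per3 lay at percentile 1.26 of all genes tested, Cry1 at 95.7 and Cry2 at 89.0.

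Per1, the member best known for rapid induction by cAMP and glucocorticoid signals, did not pass (chromosome 11, 69095217 to 69109960, plus strand). It was at 23.7 and 25.8 CPM in the KO-labelled libraries and at 13.2 and 21.8 CPM in the Het-labelled ones. Both KO values were above both Het values, yet Het replicate 2 lay nearer to the KO libraries than to the other Het library. The log2 fold change was 0.50 (SE 0.28, 95% interval -0.16 to 1.15, adjusted p = 0.434). That interval reaches from a slight fall to a rise larger than the estimate for Cry2.

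Per2, which encodes the main scaffold of the repressor complex, did not pass either (chromosome 1, 91415982 to 91459324, minus strand). It was at 91.2 and 193 CPM in the KO-labelled libraries and at 92.2 and 116 CPM in the Het-labelled ones. KO replicate 1 sat at the level of the lower Het library, and KO replicate 2 was the highest of all. The log2 fold change was 0.44 (SE 0.33, 95% interval -0.32 to 1.21, adjusted p = 0.562), and without KO replicate 2 it was -0.20. Per2 differed 2.11-fold between the KO replicates, a larger gap than in all but 14.3% of genes tested, while the other members differed 1.03-fold to 1.31-fold there. The same library had the highest summed immune (604 CPM), stromal (413 CPM) and α, δ and PP markers (8781 CPM). The part of these cells in the Per2 level was not tested.

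**Figure D2:**
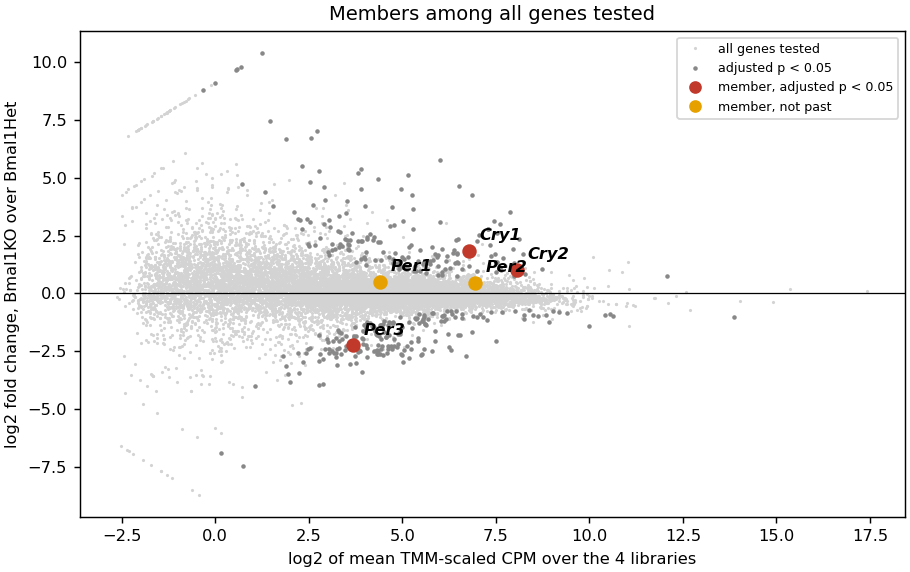
Log2 fold change (KO label over Het label) of all 14649 genes tested against the log2 of their mean level in CPM; the large points are the members, red where they passed and yellow where they did not. Cry1 (1.82) and Cry2 (1.01) lie above the cloud at their level, Per3 (-2.24) below it, and Per1 and Per2 within its upper part.

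The members' calls were also compared with 1 library left out at a time. The number of genes passing over the whole table changed in these fits too, as given at the end. A lost call is therefore not particular to a member. Cry1, Cry2 and Per3 all passed without either KO library. Without Het replicate 1, Cry1 passed (adjusted p = 0.0223), while Cry2 (0.0625) and Per3 (0.0859) did not. Without Het replicate 2 the calls of Cry1, Cry2 and Per3 were all lost in edgeR's test. No other tool was run on these subsets. In both cases the single Het library left is assumed to vary like the KO libraries. Log2 fold changes stayed between 1.61 and 1.98 for Cry1, 0.93 and 1.07 for Cry2, and -2.52 and -1.91 for Per3 over these 4 fits. Tested against a fold of 1.5, Cry1 (adjusted p = 0.0259) and Per3 (0.0400) passed and Cry2 (0.108) did not.

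**Figure D3:**
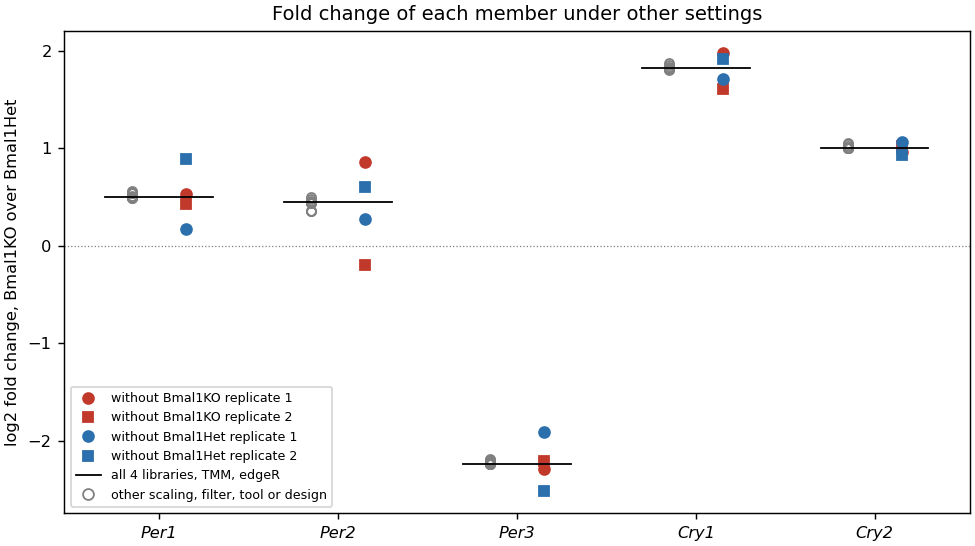
Log2 fold change of each member with all 4 libraries (black bar), under the other scalings, filters, tools and designs (open grey circles), and with 1 library left out (coloured points, at the right of each gene). Grey circles stay close to the bar, and the Per2 point without KO replicate 2 (-0.20) is the one that crosses 0.

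Ratios between members within a library do not depend on how libraries are scaled. Cry1 counts per Cry2 count were 0.406 and 0.550 in the KO-labelled libraries and 0.240 and 0.305 in the Het-labelled ones. The ratio was thus higher in both KO libraries, by 1.74-fold between the group means on the log2 scale. Per3 counts per Per1 count were 0.193 and 0.170 in the KO-labelled libraries against 1.92 and 0.767 in the Het-labelled ones, a 6.71-fold lower ratio. Against Per2 the Per3 ratio was 0.0501 and 0.0227 against 0.276 and 0.144, or 5.90-fold lower. Per1 per Per2, in contrast, overlapped between the labels, at 0.260 and 0.134 against 0.143 and 0.187. Summed cryptochrome counts per summed Period count were 4.28 and 2.45 in the KO-labelled libraries and 1.76 and 1.43 in the Het-labelled ones, a 2.04-fold higher ratio. Of these 5 ratios 4 did not overlap between the labels, beside 49.0% of single genes tested. The ratios share members and are not independent of each other, and ratios of other gene pairs were not computed. Each of those 4 gave p = 0.333 in a 2-sided exact permutation test, which is the smallest p that 2 libraries against 2 allow (0.417 adjusted over the 5 ratios), and Per1 per Per2 gave an exact permutation p of 1.

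**Figure D4:**
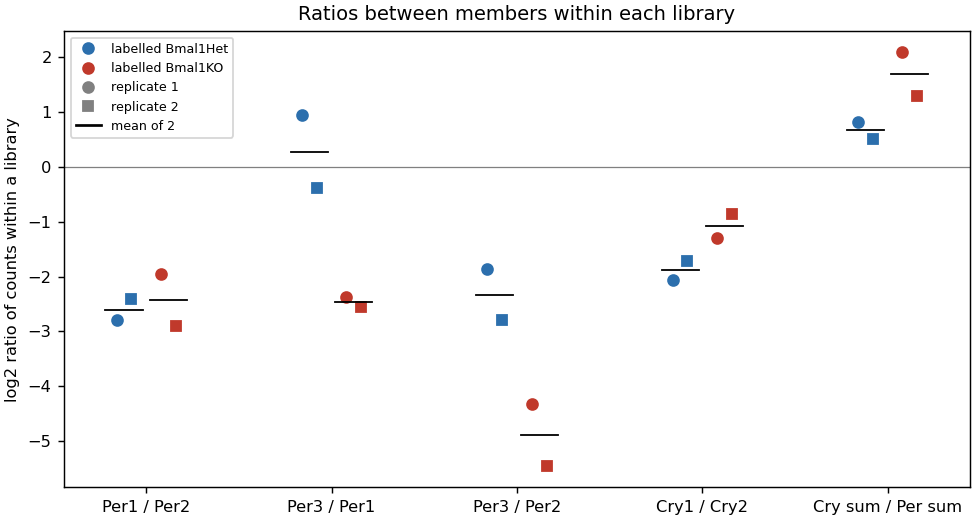
Log2 ratio of counts between members within each library; circles are replicate 1, squares replicate 2, blue the Het label, red the KO label, bars the mean of 2. Red and blue points separate for every ratio shown except Per1 over Per2.

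Levels of different genes can be compared only per length, here as CPM per kilobase of merged exons in GENCODE M21. In the libraries labelled Het, Cry2 was highest at 28.2 ± 1.80 CPM per kilobase, followed by Per2 at 17.8 ± 2.93, Cry1 at 14.5 ± 1.52, Per1 at 3.11 ± 1.08 and Per3 at 2.19 ± 0.638 (SD, n = 2 libraries). Per2 lay above Cry1 in both of these libraries, although the spreads of these neighbours touch, and Per1 and Per3 changed places between them. In the KO-labelled libraries the order became Cry2 (56.6 ± 1.29 CPM per kilobase), Cry1 (51.1 ± 9.78), Per2 (24.2 ± 12.3), Per1 (4.39 ± 0.264) and Per3 (0.465 ± 0.0144). Cry1 thus passed Per2 in both KO libraries and drew level with Cry2, above it in KO replicate 2 and below it in KO replicate 1. Per the length of the longest annotated transcript, Cry2 was first in all 4 libraries.

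The profiles of the members over the 4 libraries were compared by the root-mean-square difference of their centred log2 CPM, a description over 4 libraries of 2 labels. The closest members were Per1 and Per2 (0.375), Per1 and Cry2 (0.386) and Cry1 and Cry2 (0.447), and the farthest were Per3 and Cry1 (2.02). Among 8904 other genes with a mean of 10 CPM or more, those nearest to Cry2 were Gria2 (0.0265), Cpt1a (0.0621) and Tubb3 (0.0782). Gria2, which encodes a glutamate receptor subunit, was at 172 and 170 CPM in the KO-labelled libraries and at 92.2 and 80.6 CPM in the Het-labelled ones. Nearest to Cry1 were Sh3bgrl2 (0.144), Sult1d1 (0.179) and Rapgef5 (0.182), and nearest to Per3 were Col27a1 (0.181), Espl1 (0.187) and Ldlrad3 (0.227). Espl1 encodes separase, the protease that opens cohesin in mitosis. Listed mitosis genes summed to 99.1 and 201 CPM in the KO-labelled libraries against 705 and 919 CPM in the Het-labelled ones. A link between Per3 and these genes was not tested. Per1 lay nearest to Ythdf1 (0.0485), Egln1 (0.0491) and Smap1 (0.0515), and Per2 to Tmem123 (0.0750), Pign (0.0775) and Mtf2 (0.0847).

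The other clock genes give the setting of these changes. Among the activators, Arntl and Npas2 rose, the latter from 8.99 and 4.09 to 63.7 and 52.1 CPM (log2 fold change 3.14, adjusted p = 0.0145), and Clock (-0.35) and Arntl2 (0.75) did not pass. Among the REV-ERB and ROR receptors, which repress and activate through the same DNA element, Nr1d2, the gene of REV-ERBβ, went down from 64.4 and 51.6 to 5.27 and 9.65 CPM (log2 fold change -2.96, adjusted p = 0.0129). Nr1d1 (-1.80, adjusted p = 0.102) did not pass, with 14.5 and 19.8 CPM in the KO-labelled libraries and 88.4 and 31.1 CPM in the Het-labelled ones. Cry1 is known as a REV-ERB target, so these receptors are given here beside it, and no link was tested. The Cry1 window searched above held 0 matches to the REV-ERB and ROR element, which only 3.38% of all windows hold. Sites outside that window were not searched, so this 0 does not bear on whether Cry1 is such a target.

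D-box factors are set beside Per3, whose window holds the D-box pair shown above. Nfil3, which encodes the D-box repressor, rose from 45.2 and 38.8 to 152 and 119 CPM (log2 fold change 1.69, adjusted p = 0.0129). Hlf, an activator on the same element, rose as well, from 4.65 and 3.00 to 21.0 and 17.0 CPM (2.31, adjusted p = 0.0216). The activator genes Tef (-0.96, adjusted p = 0.0633) and Dbp (-0.35, adjusted p = 0.656) did not pass. Of the DEC repressors of E-boxes, Bhlhe40 rose (1.61, adjusted p = 0.0260) and Bhlhe41 did not pass (0.76, adjusted p = 0.156). Without Het replicate 2 the calls of Nfil3 (adjusted p = 0.0723), Hlf (0.116) and Bhlhe40 (0.0911) were lost, and against a fold of 1.5 that of Bhlhe40 (0.0734). Whether any of these factors bound the windows shown was not measured.

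**Figure D5:**
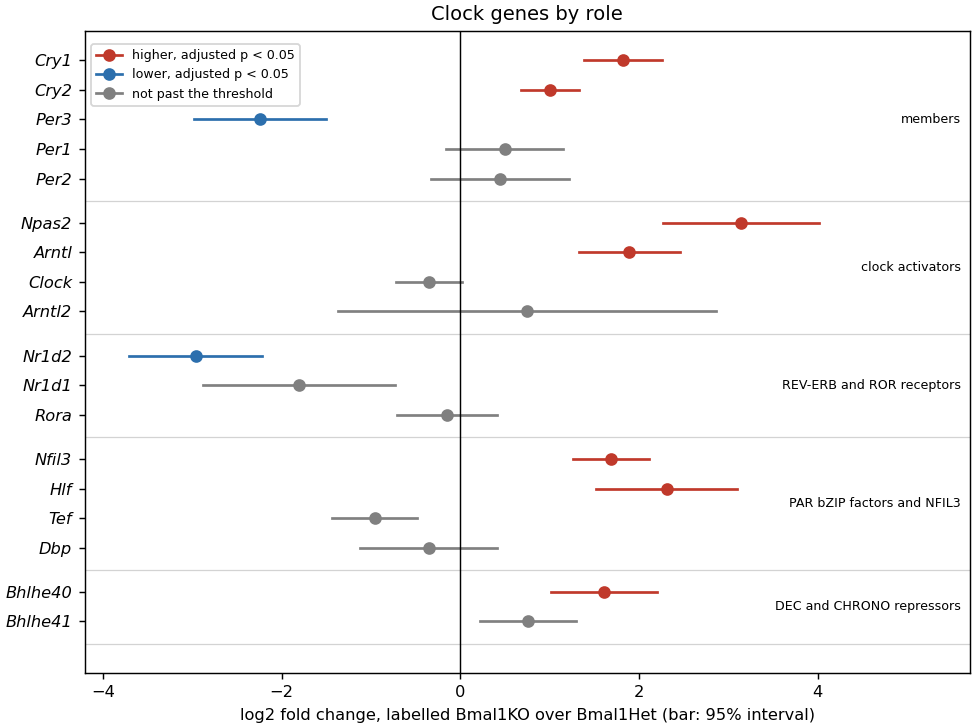
Log2 fold change (KO label over Het label) with its 95% interval, not adjusted for many genes, for the members and other clock genes, grouped by role; red passed as higher, blue as lower, grey did not pass. Cry1 and Cry2 lie on the side of Arntl, Npas2, Nfil3 and Hlf, and Per3 on the side of Nr1d2.

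Most genes whose proteins modify, degrade or join PER and CRY did not pass. The same held over all genes tested, of which 2.54% passed in edgeR's test. Of 15 kinase and phosphatase genes, among them those of casein kinase 1, which marks PER for decay, 0 passed in edgeR's test, 1 had an unadjusted p under 0.05, and 0 passed in DESeq2, limma-voom or limma-trend. Csnk1e had the smallest p, at 31.3 and 32.3 CPM in the KO-labelled libraries against 20.3 and 23.2 CPM (log2 fold change 0.54, adjusted p = 0.211), followed by Csnk1g2 (0.48). Csnk1d was at 210 and 247 CPM against 214 and 215 CPM. Of 13 ubiquitin ligase and deubiquitinase genes, Dtl fell (-2.40, adjusted p = 0.0204) and 12 did not pass; Dtl encodes a ligase adaptor that also acts in DNA replication. Its call was lost without Het replicate 1 (adjusted p = 0.0506) and without Het replicate 2 (0.130). Of 17 corepressor and RNA-binding partners of PER, 0 passed in edgeR's test, limma-voom or limma-trend, 3 had an unadjusted p under 0.05 and 1 passed in DESeq2. At least 2431 of all 14649 genes tested had an unadjusted p under 0.05, so such counts are not particular to these lists. Timeless (-1.92, adjusted p = 0.0708) and Suv39h1 (-0.61, adjusted p = 0.264) had the smallest p-values. The 3 list medians, at -0.040, -0.0011 and -0.13, lay near the 0.024 of all genes tested.

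Signals that act on Per1 were described by 3 lists. Of 15 tested immediate early and cAMP-responsive genes, 5 rose, Fos (2.08), Egr1 (1.69), Ier2 (1.41), Junb (1.20) and Zfp36 (1.06), 0 fell and 10 did not pass, with a median log2 fold change of 1.06. None of these 5 passed in edgeR's test against a fold of 1.5 (adjusted p of 0.0761 to 0.209). Fos, Ier2, Junb and Zfp36 lost their calls without Het replicate 1, and all 5 lost theirs without Het replicate 2. The call of Zfp36 was also lost without KO replicate 1. All 16 listed genes of this kind, with Nr4a3, which was not tested, summed to 2125 and 1425 CPM in the KO-labelled libraries. In the Het-labelled ones they summed to 886 and 956 CPM. Such genes also respond to cell dissociation, and their part in the Per1 level was not tested. Of 7 genes of CREB and its coactivators, 0 passed in edgeR's test or had an unadjusted p under 0.05, and 0 passed in DESeq2, limma-voom or limma-trend, with Crtc2 (0.23) and Crebbp (0.18) nearest. Of 8 genes of the glucocorticoid receptor and its targets, 0 passed in edgeR's test, limma-voom or limma-trend and 1 passed in DESeq2. An unadjusted p under 0.05 was seen for 3 of the 8, beside at least 2431 of all 14649 genes tested. Cebpd (1.30, adjusted p = 0.102) and Nr3c1, the receptor gene (-0.52, adjusted p = 0.163), had the smallest p-values.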

How the data were processed

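RNA was measured in 4 libraries, extracted by RNeasy Plus Micro and prepared by SMART-Seq v4 for low input, per the labels' protocols. STAR, edgeR and the build mm10 appear in the submitters' processing notes; versions, counter, strandedness and gene models are not stated there. The authors deposited whole-number read counts per gene symbol without normalization, and all values were computed from that table; their scaled table was not used here. After filterByExpr (minimum count 10, minimum total 15) and TMM scaling, genes were tested by glmQLFit and glmQLFTest of edgeR 4.0.16 in R 4.3.3, group as the only term, 2-sided, with Benjamini-Hochberg adjustment over all 14649 genes at 0.05. Intervals use the fit's standard error and degrees of freedom. Likeness used log2 CPM with a prior count of 3. The members, gene lists and tests were chosen with earlier results of these data known. By the rule, the text names the members, Arntl, up to 5 genes past the threshold per clock or signal list (else the 2 with the smallest p) and the 3 nearest profiles per member; Clock, Arntl2, Nr1d1, Tef, Dbp, Bhlhe41 and Csnk1d fall outside it and were named after their values were seen. A few genes of these lists are not reported here. Coordinates and exon lengths are from GENCODE M21 (GRCm38). The test was checked on simulated data with 200 changed genes. Alternatives were other scalings and filters, DESeq2 1.42.0, limma 3.58.1 (voom and trend), a threshold of 0.1, a null of up to 1.5-fold, a block on replicate number, and omission of each library in turn. Reads carry no molecular identifiers.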

Additional observations from a re-analysis of the deposited data

How the results depend on the processing

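Cry1, Cry2 and Per3 kept their direction under all 16 alternatives, with log2 fold changes of 1.81 to 1.87, 0.9998 to 1.05 and -2.24 to -2.18 over the other scalings, filters, tools and designs. Leaving out 1 library gave 1.61 to 1.98, 0.93 to 1.07 and -2.52 to -1.91, and calls were lost without a Het library as given above. Against a fold of 1.5 Cry2 did not pass (log2 fold change 1.01). Per1 stayed positive (0.17 to 0.89 with 1 library left out). Per2 ranged from -0.20, without KO replicate 2, to 0.86, and Crebbp (0.18) turned to -0.13 and -0.045 without KO replicate 1 and Het replicate 1, at most reaching 0.43. The Per1 over Per2 ratio difference of 0.18 turned to -0.29 without KO replicate 1 and -0.0087 without Het replicate 1, and reached 0.66 without KO replicate 2. The causes were not tested. Genes passing over the whole table numbered 176 higher and 196 lower. They were 430 and 378 with no filter, 266 higher at a mean of 5 CPM or more, 619 and 560 by DESeq2, 81 and 75 against a fold of 1.5, 378 and 350 at a threshold of 0.1, and 17 to 404 higher and 8 to 422 lower with 1 library left out. Per length of the longest transcript, levels moved to 5.29 (Per1, KO), 0.745 and 3.51 (Per3, KO and Het) and 89.9 and 44.8 (Cry2) CPM per kilobase. Replicate numbers are shared by label alone (correlation of deviations across genes -0.019); with a replicate block 313 genes were higher and all member calls held. Per3 rests on 140 to 984 counts per library and Per1 on 512 to 825.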
